A study of Macaca mulatta with 2 samples.

Results

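The genes described here are 10 genes for proteins of the large ribosomal subunit, RPL5, RPL6, RPL7, RPL9, RPL10, RPL15, RPL19, RPL24, RPL38 and RPL39. They were chosen by symbol, through a table that pairs Ensembl macaque gene identifiers with symbols, and each symbol matched 1 gene. The 10 genes had 16 of the 9267 listed transcripts and were 10 of the 7904 listed genes, of which 724 had a symbol. The data came from total RNA of rhesus macaque peripheral blood mononuclear cells (PBMC, that is lymphocytes with monocytes, separated from blood). Both libraries, titled LongInsert and Regular, were made from the same RNA, so the design compares ways of preparing and sequencing a library and holds no treatment. No animal number, age, strain or treatment was given for the RNA. The labels describe a standard Illumina library and, for a MiSeq run, a library made with a SMRT cDNA kit and Nextera (cutting and tagging of cDNA by a transposase) and size-selected on a gel. The instrument names and the titles go against each other, so no instrument or read length is assigned here and each direction refers to a title only.

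Ribosomal proteins of the large subunit are placed on ribosomal RNA, most of them in the nucleolus and some in the cytoplasm, and each of those described here is normally present as a single copy in the finished subunit, which forms peptide bonds. Their mRNAs carry a pyrimidine tract at the start that lets translation of the whole group be adjusted together. They are among the most abundant mRNAs of lymphocytes. Their mRNAs are short, many have processed copies elsewhere in the genome, and reads can be shared among such copies, so the value of any gene here is uncertain to that extent.

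Abundances are the authors' TPM values (an abundance per transcript length, scaled to a fixed library total), and a gene's value is the sum over its listed transcripts. The listed transcripts held 13.0% of a complete library in LongInsert and 15.3% in Regular; the rest was not analysed here. With 1 library per group there was no spread between replicates, no test was possible, and no difference below has an error. Read depth is unknown, since TPM keeps no record of it. As PBMC are a mixture, a level within a library cannot tell more cells of a type from more RNA per cell. Both libraries came from the same RNA, so the same mixture of cells lies behind both. Classical defining genes such as CD3E, MS4A1, NKG7 and CD14 had no match among the genes with a symbol. Of 8 matched genes on the fixed list of blood and other cell type markers, the leukocyte genes LSP1 (396 TPM in LongInsert against 719 TPM in Regular) and BIN2 (580 and 355 TPM) were the most abundant, and the haemoglobin gene HBA1 had 0.0093 and 0.00352 TPM. By the 2-fold rule used below, 2 of the 7 that averaged at least 1 TPM were higher in LongInsert, none was lower and 5 were within 2-fold. Among all genes at that minimum, 50.8% were higher, 19.8% lower and 29.3% within 2-fold. After the centring described below, 1 of the 7 was higher, 1 lower and 5 within 2-fold. The higher genes before centring were FCRL5, a receptor of B-lineage cells (32.7 and 10.9 TPM), and ITGAE, an integrin chain of some T cells (13.3 and 2.5 TPM). The myeloid genes FCGR1A (6.69 and 8.47 TPM) and SIRPA (5.35 and 7.38 TPM) were within 2-fold before centring. So were LSP1, BIN2 and PECAM1 (282 and 142 TPM), the last just inside the limit with a log2 ratio of 0.98. The marker values describe the libraries of this RNA, and their relation to the results below was not tested.

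The 10 genes together had close totals in both libraries as deposited, but the totals were made up differently. They summed to 19790 TPM in LongInsert against 21872 TPM in Regular, which was 15.2% and 14.3% of the listed TPM. The order of these shares depended on the total, since with the 10 most abundant other genes left out of it they were 20.3% and 26.5%. RPL10 supplied 16.7% of the sum in LongInsert and 45.5% in Regular. Without RPL10, the other genes summed to 16495 TPM in LongInsert against 11913 TPM in Regular, a ratio of 1.38 as deposited. The direction of this ratio depended on the scaling too, since the centring described below, by a log2 ratio of 0.59, is a larger shift. In LongInsert the levels ran from 618 TPM for RPL38 to 3548 TPM for RPL9, a range of 5.74-fold. In Regular they ran from 0.837 TPM for RPL38 to 9959 TPM for RPL10, a range of 11903-fold. The SD of log2(TPM + 1) across the 10 genes was 0.87 in LongInsert and 3.54 in Regular. Without RPL38 and RPL39 it was 0.79 and 1.25, so the remaining 8 genes were also more unequal in Regular.

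**Figure D1:**
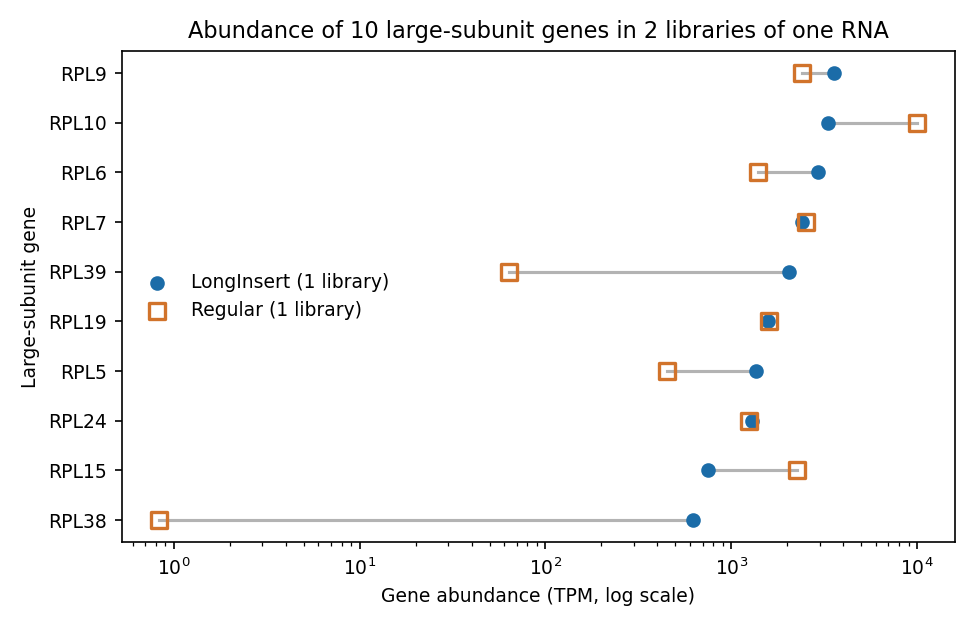
Abundance of each gene in TPM (x axis, log scale), with LongInsert as filled circles and Regular as open squares, 1 library each and no error bars. RPL7, RPL19 and RPL24 have almost the same value in both libraries, and RPL38 has 618 TPM in LongInsert and 0.837 in Regular.

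Relative to each other, RPL5, RPL6, RPL38 and RPL39 (4 of 10) had a LongInsert value at least 2-fold above the Regular value, RPL10 and RPL15 (2 of 10) one at least 2-fold below it, and RPL7, RPL9, RPL19 and RPL24 (4 of 10) lay within 2-fold. Ratios were taken as log2((LongInsert + 1)/(Regular + 1)). The added pseudocount of 1 TPM makes differences of low values look smaller, and 2-fold is a fixed size, not a test. Among all 1310 genes that averaged 1 TPM or more over the libraries, 50.8% were higher by that rule, 19.8% were lower and 29.3% were within 2-fold. All 10 genes passed that minimum, RPL38 only through LongInsert, and their split was near this background. Among the 153 genes that averaged at least 100 TPM, a level that all 10 genes also reached (RPL38 and RPL39 only through LongInsert), 26.1% were higher, 28.1% lower and 45.8% within 2-fold. For the 10 genes the median log2 ratio was 0.31, beside 1.04 for all genes of at least 1 TPM and 0.06 for those of at least 100 TPM. Without RPL38 and RPL39 the median was 0.02. The scaling between the libraries mattered. Genes that averaged at least 10 TPM had a median log2 ratio of 0.59, and with all ratios centred on it 2 of the 10 genes (RPL38 and RPL39) were higher, 2 lower (RPL10 and RPL15) and 6 within 2-fold. The same centring left 38.5% of the 1310 genes higher, 25.5% lower and 36.0% within 2-fold. The median of the 10 genes was then -0.28.

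**Figure D2:**
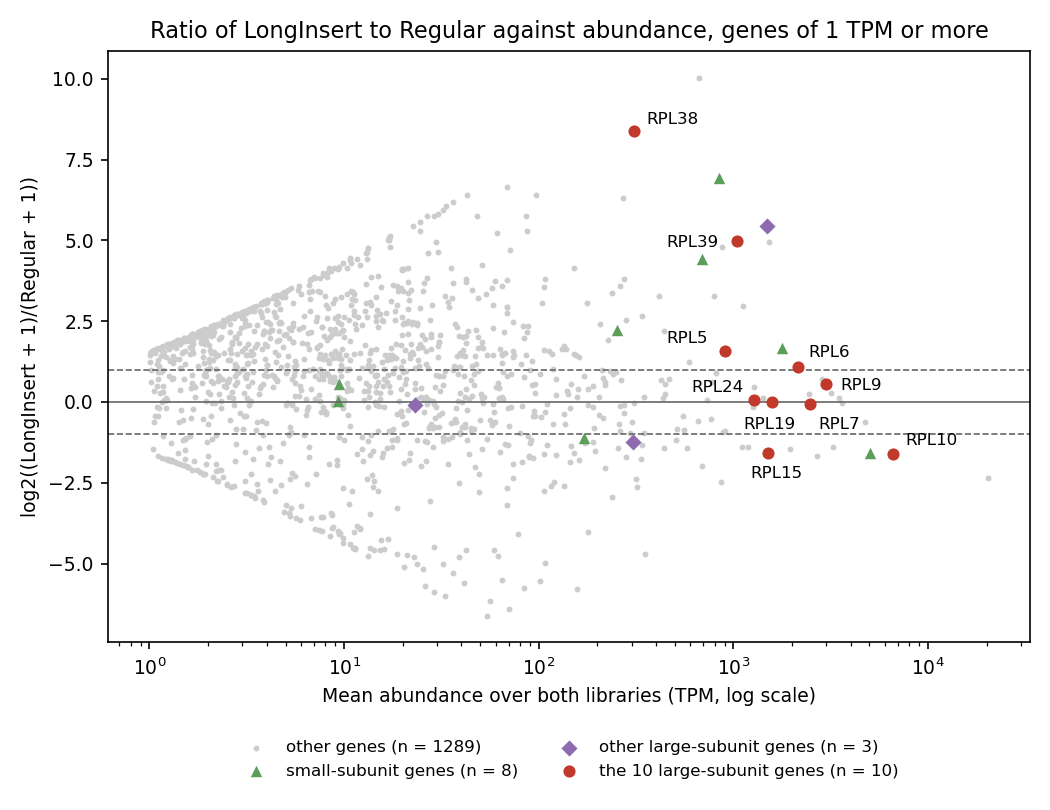
log2 ratio of LongInsert to Regular (y axis, pseudocount 1 TPM) against mean TPM (x axis, log scale) for the 1310 genes averaging at least 1 TPM, with dashed lines at 2-fold. The 10 genes (red) are all at the abundant end and spread from -1.60 for RPL10 to 8.40 for RPL38.

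RPL10, RPL19 and RPL24 encode proteins at or near the face of the large subunit that meets the small subunit. RPL10 is needed for the last maturation steps of the subunit in the cytoplasm and lies close to the peptidyl transferase centre. It had 3295 TPM in LongInsert against 9959 TPM in Regular, 3.02-fold more in Regular, with a log2 ratio of -1.60. It ranked 8 among all listed genes in LongInsert and 2 in Regular. RPL19, which reaches from the large to the small subunit in a bridge, had 1572 TPM in LongInsert against 1586 TPM in Regular. RPL24, which forms another such bridge, had 1299 and 1246 TPM. The values of RPL19 and RPL24 lay within a few percent of each other between libraries, with log2 ratios of -0.01 and 0.06, whereas after centring they were -0.61 and -0.53. The ratio of RPL24 to RPL19 within a library does not depend on the scaling, and it was 0.826 in LongInsert and 0.786 in Regular. The ratio of RPL10 to RPL19 was 2.10 in LongInsert and 6.28 in Regular. RPL10 thus moved away from both bridge proteins of this group, by a measure that scaling cannot alter. Summed, the 3 genes held 4.74% of the listed TPM in LongInsert against 8.37% in Regular.

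RPL5 binds the 5S ribosomal RNA together with RPL11 and, outside the ribosome, takes part in the restraint of MDM2, the ubiquitin ligase of p53. It had 1354 TPM in LongInsert against 452 TPM in Regular and a log2 ratio of 1.58. It ranked 25 in LongInsert and 46 in Regular among all listed genes. After centring its log2 ratio was 0.99, just inside the 2-fold limit.

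RPL39, a very small protein that lines the tunnel through which the new peptide leaves, had 2032 TPM in LongInsert against 63.4 TPM in Regular. Its log2 ratio was 4.98 and its rank went from 16 in LongInsert to 185 in Regular. RPL38, a small protein on the surface of the subunit that is known from mice for its part in the translation of certain Hox mRNAs, differed more. It had 618 TPM in LongInsert against 0.837 TPM in Regular, and its rank went from 42 to 1063. Its log2 ratio was 8.40 with a pseudocount of 1 TPM, 9.37 with 0.1 TPM and 6.74 with 5 TPM, so its size rests on the pseudocount while its direction does not. Depth is unknown, so the low value of RPL38 in Regular cannot be told from too few reads.

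**Figure D3:**
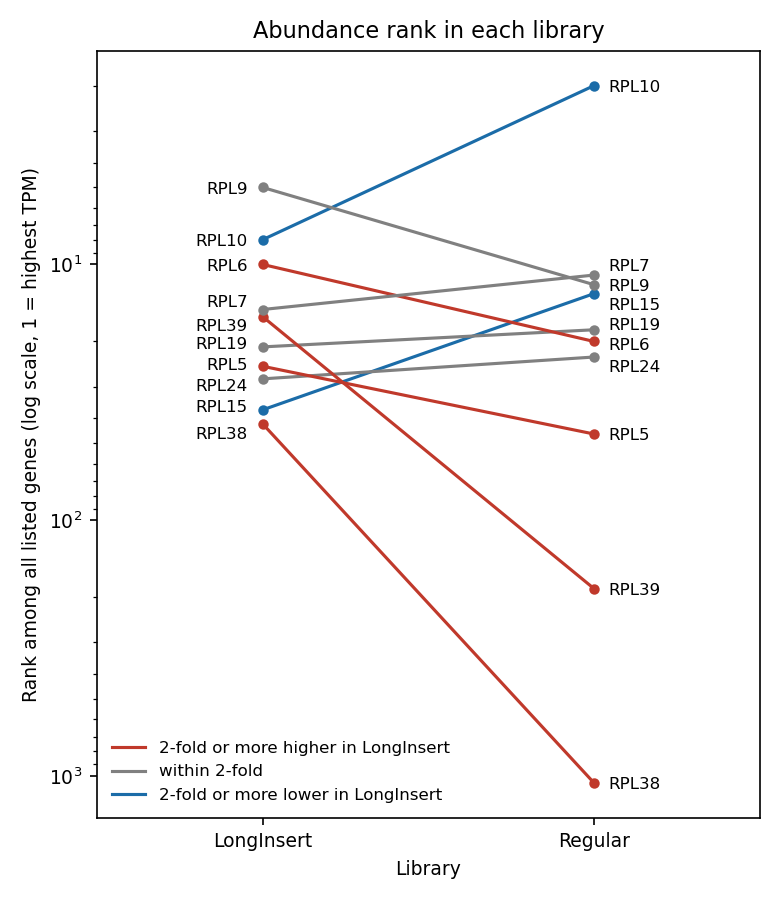
Rank of each gene among all 7904 listed genes (y axis, log scale, 1 is the highest TPM) in LongInsert and Regular, 1 library each, coloured by the 2-fold rule. The ranks lie between 5 and 42 in LongInsert and between 2 and 1063 in Regular, where RPL39 at 185 and RPL38 at 1063 are far below the other 8 genes.

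RPL6, RPL7, RPL9 and RPL15 encode proteins of the body of the subunit that hold folded ribosomal RNA in place. RPL9 had 3548 TPM in LongInsert, where it was the most abundant listed gene with a symbol, and 2402 TPM in Regular, where it ranked 6 among genes with a symbol. Its log2 ratio was 0.56. RPL6 had 2914 TPM in LongInsert against 1385 TPM in Regular and a log2 ratio of 1.07 that lay just past the 2-fold limit and was 0.48 after centring. RPL7 had 2409 and 2530 TPM, a log2 ratio of -0.07. RPL15 had 748 TPM in LongInsert against 2247 TPM in Regular and a log2 ratio of -1.59. RPL15 was therefore the second lowest of the 10 genes in LongInsert and the fourth highest in Regular. RPL6 was 3.90 times as abundant as RPL15 in LongInsert and 0.617 times as abundant in Regular. RPL7 and RPL19 kept a ratio of 1.53 in LongInsert and 1.59 in Regular. RPL10 and RPL15 were higher in Regular by nearly the same factor, 3.02 and 3.0. The other 8 genes were within 2-fold or higher in LongInsert before centring.

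Each library therefore gave another order of the 10 genes. From highest to lowest the order was RPL9, RPL10, RPL6, RPL7, RPL39, RPL19, RPL5, RPL24, RPL15 and RPL38 in LongInsert. In Regular it was RPL10, RPL7, RPL9, RPL15, RPL19, RPL6, RPL24, RPL5, RPL39 and RPL38. With no spread between libraries of the same kind, whether neighbours in either order differ beyond error is not known. Of the 45 pairs of genes, 32 had the same order in both libraries and 13 had the opposite order. Only the pair of RPL15 and RPL39 had opposite orders with a difference of 2-fold or more in both libraries, with RPL39 2.72 times as abundant as RPL15 in LongInsert and RPL15 35.5 times as abundant as RPL39 in Regular. More pairs were 2-fold or more apart in Regular, 31 of 45, than in LongInsert, 22 of 45. Across the 10 genes Pearson's r of log2(TPM + 1) between the libraries was 0.602 and Spearman's rho was 0.624, and without RPL38 and RPL39 they were 0.456 and 0.548. Across the 153 genes averaging at least 100 TPM these values were 0.336 and 0.320, and across the 62 of them with a symbol 0.428 and 0.371. They describe genes of the same RNA, which are not independent replicates.

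The transcripts of a gene show whether its difference was shared by its isoforms. Only 1 transcript was listed for 6 of the genes, RPL5, RPL7, RPL19, RPL24, RPL38 and RPL39. The other 4 had 2 or 3 transcripts. At the level of transcripts, 15 of the 16 averaged at least 1 TPM, and of these 4 exceeded their Regular value 2-fold or more in LongInsert, 3 were lower by that rule and 8 within 2-fold. Among all 1500 transcripts at that minimum, 51.8% were higher, 20.5% were lower and 27.7% within 2-fold. No transcript sequence was at hand, so the parts in which these isoforms differ are not described.

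RPL10 was the only 1 of the 4 genes whose leading transcript differed between libraries. In the background of 194 multi-transcript genes averaging at least 5 TPM, 27.8% had a different leading transcript. The leader was the same in 140 of the 194, and in 87 of the 105 with 2 transcripts. A different leader was thus less common in genes with 2 transcripts, whereas RPL10 had 3. ENSMMUT00000007732 had 2242 TPM in LongInsert against 4876 TPM in Regular. ENSMMUT00000047725 had 1054 TPM in LongInsert against 5083 TPM in Regular. Both transcripts were thus higher in Regular, the first by 2.18-fold and the second by 4.82-fold. The share of ENSMMUT00000007732 went from 68.0% of the gene in LongInsert to 49.0% in Regular, and that of ENSMMUT00000047725 from 32.0% to 51.0%. In Regular the 2 transcripts were nearly equal, at a ratio of 1.04, so the change of leader rests on a small margin there. Of the 6664 TPM by which RPL10 was higher in Regular, 60.5% came from ENSMMUT00000047725. The third transcript, ENSMMUT00000004082, had 0.00366 TPM in LongInsert against 0.00157 TPM in Regular.

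RPL15 kept its leading transcript, with a larger lead in Regular. ENSMMUT00000008914 had 432 TPM in LongInsert against 1754 TPM in Regular, which made up 57.8% and 78.1% of the gene. ENSMMUT00000008915 had 280 TPM in LongInsert against 444 TPM in Regular, shares of 37.4% and 19.8%. ENSMMUT00000008913 had 36.1 and 48.6 TPM, or 4.83% and 2.16%. All 3 transcripts had higher values in Regular, but by different factors of 4.06, 1.59 and 1.34, and the first supplied 88.2% of the difference of the gene.

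RPL6 and RPL9 kept nearly the same division in both libraries. In RPL6, ENSMMUT00000010391 had 2519 TPM in LongInsert against 1187 TPM in Regular, which made up 86.4% and 85.7% of the gene. Its other transcript, ENSMMUT00000045564, had 395 and 198 TPM, so both were about equally higher in LongInsert, by 2.12-fold and 1.99-fold. In RPL9, ENSMMUT00000011959 held 98.8% in LongInsert and 97.5% in Regular. The minor transcript of RPL9, ENSMMUT00000023797, went against the gene, with 42.2 TPM in LongInsert against 61.0 TPM in Regular. The share of the LongInsert leader differed between libraries by 20.3 percentage points in RPL15, 19.1 in RPL10, 1.35 in RPL9 and 0.739 in RPL6. The median absolute difference of the 194 background genes was 11.7 points. RPL10 and RPL15 lay above it and RPL6 and RPL9 below it, with 72 of the 194 genes differing more than RPL10 and 145 more than RPL9. A difference of 10 points or more was common in the background, in 106 of the 194 genes (54.6%). Of the 4 genes, RPL10 and RPL15 shifted more, and they were also those with totals lower in LongInsert by 2-fold or more. They were, too, the genes with 3 listed transcripts, where RPL6 and RPL9 had 2. With 4 genes this is a description only.

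**Figure D4:**
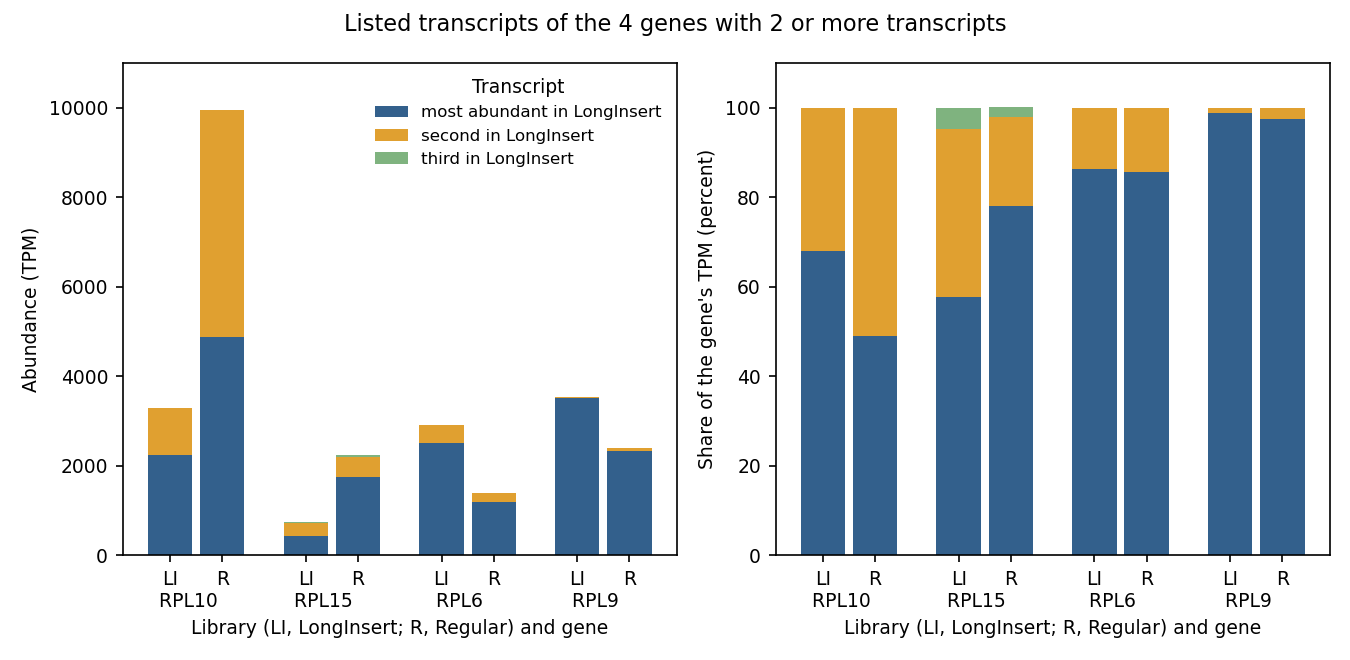
Transcripts of RPL10, RPL15, RPL6 and RPL9 in LongInsert (LI) and Regular (R), as stacked TPM (left) and as percent of the gene (right), 1 library each. The second transcript of RPL10 grows from 32.0% to 51.0%, whereas the division of RPL6 and RPL9 is almost the same in both libraries.

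Of the other 44 symbols on the fixed list of large-subunit proteins and their paralogs, 5 matched a listed gene with a symbol. Of these, 3 averaged at least 1 TPM. Genes listed without a symbol could not be matched to this list or to the lists below. RPL30 had 2902 TPM in LongInsert against 65.4 TPM in Regular, close to RPL39 in Regular. RPL7L1, a paralog of RPL7, had 22.4 and 24.1 TPM. Of the small-subunit list, 8 genes averaged at least 1 TPM, of which 4 were higher in LongInsert, 2 lower and 2 within 2-fold, with a median log2 ratio of 1.12. Among all genes at that minimum, 50.8% were higher, 19.8% lower and 29.3% within 2-fold. The median log2 ratio was 1.04 for all these genes and 1.12 for those with a symbol, near the small-subunit median. Most of the 8 genes, however, averaged more than 100 TPM. Among all genes averaging at least 100 TPM, 26.1% were higher, 28.1% lower and 45.8% within 2-fold. Their median log2 ratio was 0.06, or 0.55 for those with a symbol. After centring, 4 of the 8 were higher, 2 lower and 2 within 2-fold, beside 38.5%, 25.5% and 36.0% of all genes of at least 1 TPM. RPS3A (1665 and 12.5 TPM), RPS25 (1315 and 60.6 TPM) and both genes with the symbol RPS24 (2692 and 840 TPM, and 415 and 87.0 TPM) were higher in LongInsert. The gene RPSA (ENSMMUG00000022965) at 2532 and 7539 TPM and RPS27A at 107 and 233 TPM were lower. RPS2, at 11.4 and 7.40 TPM, and the second RPSA gene (ENSMMUG00000004941), at 9.39 and 9.18 TPM, were within 2-fold. Both lists thus held genes far higher in LongInsert and genes 2-fold to 3-fold higher in Regular, and the difference between the lists was not tested. Of the list of mitochondrial large-subunit genes only MRPL1 passed the minimum, at 19.4 and 23.1 TPM. Of 24 assembly factors of the large subunit, 4 passed it, with 1 higher in LongInsert (MDN1, 36.7 and 5.56 TPM), 2 lower (BOP1, 15.4 and 36.6 TPM, and PPAN, 8.08 and 32.6 TPM) and 1 within 2-fold (NIP7, 11.0 and 5.42 TPM). NIP7 was within 2-fold only through the pseudocount, which gave a log2 ratio of 0.90, since its values without it were 2.02-fold apart.

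Outside the ribosomal proteins, the gene with a symbol nearest to a given gene of the 10 was found by Euclidean distance of log2(TPM + 1) over the 2 libraries among 700 genes. HNRNPA1, an RNA-binding protein of splicing, had 1472 TPM in LongInsert against 1366 TPM in Regular and was nearest to RPL24 (distance 0.22), RPL19 (0.24) and RPL6 (0.98). EIF4A2, an RNA helicase of translation initiation, was nearest to RPL5 at a distance of 0.78, with 837 and 352 TPM. NME1, a nucleoside diphosphate kinase, was nearest to RPL15 at 1.0, with 608 and 1163 TPM. The genes nearest to RPL39 and RPL38 were OGT, the O-GlcNAc transferase (755 and 77.6 TPM, distance 1.46), and the phosphatase gene PTP4A1 (169 and 2.16 TPM, distance 2.02). With only 2 libraries, nearness describes these values and no shared pattern over conditions.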

How the data were processed

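The authors deposited a table for each library that gives a TPM value to every listed transcript beside its gene, per the file headers. CASAVA 1.8.2, Trimmomatic and STAR are named in the submitters' processing notes, with no role stated. Isolator, software for isoform abundance, is named in the title of the series. Genome build, annotation and settings: not given in the sources used here. TPM was summed over the transcripts of a gene. The 10 genes and all gene lists were chosen with earlier results of these data known. The rule for names takes the 10 genes, listed ribosomal protein genes averaging at least 1 TPM, and the nearest other gene of each of the 10. A few genes picked by it are left out by name. Members of the assembly, mitochondrial and marker lists were named after their values were seen. Ratios and shares were computed with Python 3.11.15 and pandas 2.3.3. The code was tested on known fold changes put into the values of a library and on a small made-up isoform table. No noise was added, so the test checks the code and not how reliable the 2-fold groups are. The alternatives tried changed the pseudocount, the minimum, the scaling and the choice of leading transcript. The planned comparison with protein length and composition was not made, since no sequence was at hand. No coordinates are given, since the reference table is of an assembly whose match to the annotation is unknown.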

Additional observations from a re-analysis of the deposited data

How the results depend on the processing

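Each group is 1 library, which leaves no replicate to omit. No paired analysis was possible because each title has 1 library and no replicate number. The members of the 2-fold groups were the same with pseudocounts of 0.1 and 5 TPM, with no minimum mean, with minimum means of 10 TPM and 100 TPM (the last chosen after seeing the data), and with genes of the same symbol summed. Centring on the median of genes averaging at least 10 TPM left 2 genes higher in LongInsert in place of 4, since RPL5 and RPL6 came within 2-fold, and moved the median log2 ratio from 0.31 to -0.28. Rescaling without the 10 most abundant genes left 3 higher, without RPL6, and a median of 0.01. No share of all genes is given for this rescaling, so that count has no background beside it. Of 50 recomputed log2 ratios of single genes, 38 moved by less than 1.5-fold, 12 moved by more and no called ratio changed sign; 10 of the 12 came from centring and the others from the pseudocount in RPL38. The median rank of the 10 genes among all listed genes was 18.5 in LongInsert and 19.0 in Regular, and among genes with a symbol, which are fewer, 9.5 and 8.5. With the 10 most abundant other genes left out of the total, the share of the 10 genes was 20.3% in LongInsert and 26.5% in Regular. The leading transcript was shared in 3 of 4 genes in each setting tried. At a mean of 100 TPM or more, 23.9% of 46 background genes had a different leader. Depth is unknown, so low values cannot be told from too few reads.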

Other observations

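RPL7 and its paralog RPL7L1, which is known from ribosome assembly, had close ratios in both libraries although their levels are far apart, with RPL7 108 times as abundant in LongInsert and 105 times in Regular. RPL23A, which lies at the exit of the peptide tunnel, was listed near 0 in both libraries, at 0.044 TPM in LongInsert against 0.0267 TPM in Regular over 3 transcripts. RPL36AL, a paralog of RPL36A, was also near 0, at 0.00413 and 0.0211 TPM. Both are genes of the fixed large-subunit list that fell under the minimum of 1 TPM. The RPL23A and RPL36AL values were chosen for mention after they were seen, and whether other copies of these genes took their reads was not tested.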
